A study of Mus musculus with 6 samples.

Results

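The genes examined were 42 enzymes and regulators of cholesterol and fatty acid synthesis, among them known targets and controllers of the SREBP transcription factors. They were chosen by symbol as ATP citrate lyase (Acly) and the synthesis genes around it. They are 42 of the 52323 genes in the deposited count table, and all 42 were among the 19135 genes that passed the filter on low counts. The cells were damaged hepatocytes (dHeps), isolated by collagenase perfusion from the livers of mice with CCl4 injury. The study describes this isolation with AAV-TBG-Cre:Rosa-LSL-tdTomato mice, and its text does not give the genotype behind the RNA-seq cultures. The TBG promoter restricts Cre, and so the tdTomato label, to hepatocytes, and the study describes most cells of this isolation as carrying the label. No sorting on it is described for these cultures. The mice were of both sexes and 8–10 weeks old when the injections began, and the injections ran for 12 weeks.

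All cultures were kept for 16 days in serum-free Hepatocyte Maintenance Medium (Lonza). The DMSO group received solvent only. The 3C group received CID755673 (50 µM), an inhibitor of protein kinase D, GSK429286A (2 µM), an inhibitor of the kinase ROCK, and ETC-1002 (5 µM). ETC-1002 is used in the study as an AMPK activator and is also known to block ATP citrate lyase. The 5C group had these 3 compounds at the same doses plus salidroside (5 µM), a plant glycoside, and forskolin (2 µM), an activator of adenylate cyclase. None of these cultures received ETC-1002 alone, so in these libraries its part in any difference cannot be told apart from that of the other compounds. In other cultures, the study paired ETC-1002 with forskolin and also removed it from 5C. Each group had 2 RNA-seq libraries. The study's methods call the replicates counted in its figure legends biologically separate, but the labels do not say whether the 2 libraries of a group came from separate animals or cultures. P-values therefore measure only the spread between these libraries, which may be technical.

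Library totals ran from 65916573 to 69245895 counts. Levels are given as CPM, a gene's counts scaled to a common library total, always replicate 1 before replicate 2. Where genes are compared with each other, levels are given as the deposited FPKM. It is a measure per gene length that did not follow these counts for every gene. Markers of other cell types were found beside those of hepatocytes. The summed level of 7 hepatocyte markers was 1862 to 2003 CPM with DMSO, 8514 to 8904 with 3C and 7773 to 11473 with 5C, and that of 12 macrophage markers was 13146 to 13905, 3806 to 3889 and 2372 to 2401 CPM. None of the markers was at 0 in any library. In bulk RNA, fewer cells of a type and less RNA per cell cannot be told apart.

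Cytosolic acetyl-CoA, which Acly makes from exported citrate, feeds both branches of the pathway. Along the sterol branch it is built into mevalonate, then squalene, then cholesterol. Along the fatty acid branch it is carboxylated, joined into palmitate, and then desaturated, elongated and placed on glycerol. The SREBP proteins are held in the endoplasmic reticulum by Insig proteins while sterol is plentiful. When sterol falls, Scap carries them to the Golgi, where they are cut to release a transcription factor. SREBP2, from Srebf2, mainly drives sterol genes, while SREBP1c, from Srebf1, and the glucose-responsive factor ChREBP, from Mlxipl, drive fatty acid genes in the liver. SREBPs bind sterol regulatory elements, usually beside sites for NF-Y, which recognises CCAAT, or Sp1, which recognises GC boxes.

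The 250 bases before the annotated start of each member were searched on both strands. The patterns were an exact form of the sterol regulatory element, TCACNCCAC, and CCAAT, the GC box GGGCGG and the E-box CACGTG. Other forms of the element and sites outside this window were not searched. The element TCACNCCAC was found at 5 of 42 members, 11.9%, against 1.12% of 21770 protein-coding promoters of the same length. Its 6 sites, none of which shared a base with a CCAAT match, are printed with the bases around them because they set members that differed strongly in response side by side. Capitals mark the element. The sites of Acss2 and Fasn also lie in exons of other annotated transcripts of the same genes, that of Hmgcs1 in an exon of the antisense gene Gm60502, and those of Mlxipl and Acaca in no exon. The sites lie 5′ to 3′ on the strand of the gene (GRCm39) at chr13:120151740-120151769 (Hmgcs1, plus strand), chr2:155359619-155359648 and chr2:155359672-155359701 (Acss2, plus), chr5:135135599-135135628 (Mlxipl, plus), chr11:120715062-120715091 (Fasn, minus) and chr11:84063840-84063869 (Acaca, plus).
Hmgcs1: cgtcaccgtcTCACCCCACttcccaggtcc
Acss2, first site: cctaacttggTCACTCCACagccttgcctc
Acss2, second site: ctacaccccaTCACTCCACgggcccgcctc
Mlxipl: atcagtggttTCACACCACgctcactggtt
Fasn: cgcgcgggcaTCACCCCACcggcggcggcg
Acaca: acaggcacacTCACACCACaccctgggtgc

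Of these 5 genes, Hmgcs1, Acss2 and Mlxipl were called higher in both treated groups, and Fasn and Acaca were called in no comparison. CCAAT was present at 13 of the 18 sterol-branch promoters (72.2%) and at 4 of the 13 of the fatty acid branch (30.8%), against 36.5% of all promoters. The 3 sterol genes that were not called in 5C against DMSO, Pmvk, Mvd and Dhcr7, held no CCAAT match in this window, and neither did Acat2 and Cyp51, which rose. GC boxes stood at 22 of 42 members (52.4%, against 36.3% of all) and the E-box at 6 (14.3%, against 6.26%). By branch, GC boxes stood at 11 of 18 sterol promoters (61.1%) and at 3 of 13 of the fatty acid branch (23.1%). The element TCACNCCAC stood at 1 of 18 (5.56%) and 2 of 13 (15.4%). The promoters of Scd1 (chr19:44396341-44396590) and Fads2 (chr19:10079204-10079453), both on the minus strand, are shown in full because these genes combined a high level with a large change, a choice made after their values were seen. Neither holds TCACNCCAC. Capitals mark CCAAT or its reverse complement, found at 2 places in each.
Scd1: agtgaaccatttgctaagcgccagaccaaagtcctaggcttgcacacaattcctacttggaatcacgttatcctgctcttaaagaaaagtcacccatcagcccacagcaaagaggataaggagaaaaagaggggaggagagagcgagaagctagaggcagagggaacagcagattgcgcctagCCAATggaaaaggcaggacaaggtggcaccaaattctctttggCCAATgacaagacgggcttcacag
Fads2: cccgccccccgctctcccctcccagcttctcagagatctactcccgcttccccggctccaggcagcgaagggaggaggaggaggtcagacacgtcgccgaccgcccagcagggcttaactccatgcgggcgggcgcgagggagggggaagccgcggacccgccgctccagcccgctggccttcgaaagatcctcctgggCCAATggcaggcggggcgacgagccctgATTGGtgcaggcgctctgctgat

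In 5C against DMSO, 30 of the 42 genes were called higher and 1 lower, at a Benjamini-Hochberg adjusted p under 0.05 in edgeR with no fold limit. Over the whole table, 15.6% of genes passed upwards and 13.1% downwards, 28.7% in all. In 3C against DMSO, 26 were called higher (12.7% of all genes) and 0 lower (11.8% of all genes), where 24.5% of genes were called in either direction. At an unadjusted p under 0.05, edgeR gave 1 member lower there, and DESeq2 also called 0. In 5C against 3C, 11 were called higher (7.33% of all genes) and 2 lower (5.33%), where 12.7% were called in either direction. The libraries of the 2 groups did not overlap, with the treated ones higher, for 34 members in 5C against DMSO (30.9% of all genes) and 32 in 3C against DMSO (33.6%), and for 25 with 5C above 3C (23.2%). They did not overlap with the lower values in the first-named group for 4 (32.2% of all genes), 2 (27.7%) and 9 members (34.8%). The median log2 fold change of the 42 genes was 0.54, 0.41 and 0.19 in these comparisons, against 0.0041, 0.0088 and -0.011 over all genes. The first 2 comparisons share the DMSO libraries, so they are not independent of each other.

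The cell markers moved with the groups. In 5C against DMSO, 6 of 7 hepatocyte markers were called higher and 11 of 12 macrophage markers lower, and the same counts were found in 3C. The remaining hepatocyte marker, Arg1, was called lower in both. The 8 markers of stellate cells and fibroblasts were split: 5 were called higher and 2 lower in 5C, and 4 higher and 3 lower in 3C. Des and Acta2 were lower in both, while Pdgfra, Pdgfrb, Dcn and Lrat were higher in both. Of the 6 endothelial markers, Lyve1 and Cd93, which hold most of the sum, were lower in both, and Pecam1 and Cdh5 were higher in both, with Kdr also higher in 5C. The stellate and fibroblast markers, mostly Col1a1, Col1a2 and Dcn by level, summed to 6445 to 7565 CPM with DMSO, 5951 to 5997 with 3C and 10206 to 10759 with 5C, those of mesothelial cells to 774 to 910, 984 to 1066 and 1571 to 1659, those of cholangiocytes to 151 to 153, 332 to 397 and 327 to 349, and those of endothelial cells to 638 to 646, 210 to 242 and 242 to 333. The part of these cell types in the differences of the 42 genes was not tested.

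Most of these changes were small. With a log2 fold change above 1 also required, 7 members remained higher in 5C against DMSO (7.3% of all genes) and 5 in 3C against DMSO (5.83% of all genes), and 1 in 5C against 3C (2.16%). None of the members fell by that much in these comparisons, against 4.42%, 3.62% and 0.852% of all genes, and without the fold limit the members lower were 1, 0 and 2, by edgeR, and 1, 0 and 3 by DESeq2, with 1, 1 and 3 at an unadjusted p under 0.05. The plot of each member's level by library shows most sterol genes shifted upward, by differing amounts, and fatty acid genes spread more widely.

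**Figure D1:**
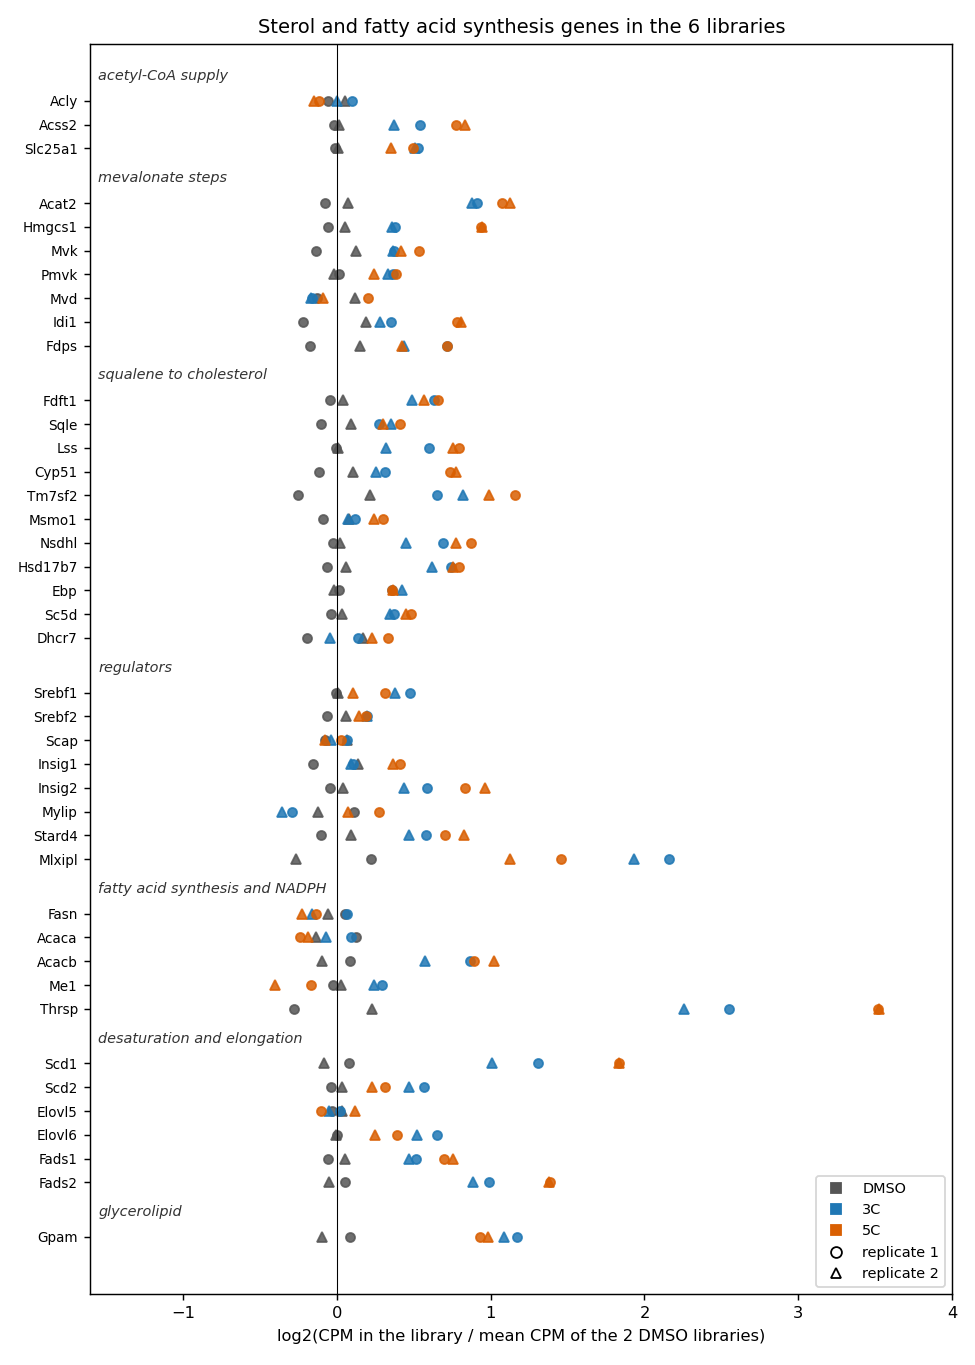
Level of each gene in each of the 6 libraries, as log2 of the CPM over the mean CPM of the 2 DMSO libraries, grouped by role. Circles are replicate 1 and triangles replicate 2, and Pnpla3 is left out because 1 DMSO library had 0 counts. Sterol genes moved up by up to 1.12 log2 units on the fitted scale, while Thrsp, Scd1, Mlxipl and Fads2 moved further and Acly, Fasn and Acaca stayed near 0.

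Acly itself was not called in any comparison. Its level was 224 and 242 CPM with DMSO, 250.3 and 233 with 3C and 215 and 210.4 with 5C. The 3C and DMSO libraries overlapped, and both 5C libraries lay slightly below them. The log2 fold change was -0.11 ± 0.074 (SE) in 5C and 0.020 ± 0.074 in 3C, with 95% intervals of -0.28 to 0.055 and -0.15 to 0.19. The measurement is of mRNA and says nothing of the activity of the enzyme, which is where ETC-1002 acts. Per length, Acly was the 6th most abundant of the 42 genes with DMSO, at 49.2 ± 0.26 FPKM (SD, n = 2), beside Insig1 at 49.9 ± 5.18 and Msmo1 at 48.8 ± 2.20 FPKM, from which it did not differ beyond their spread. It was 11th with 3C and 14th with 5C, at 49.8 ± 2.03 and 44.2 ± 1.71 FPKM.

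Both other genes of acetyl-CoA supply were called higher in both treated groups. Acss2, which makes acetyl-CoA from acetate, had 17.6 and 17.99 CPM with DMSO, 25.97 and 23.1 with 3C and 30.5 and 31.8 with 5C. The groups did not overlap, and Acss2 rose by a log2 fold change of 0.83 ± 0.10 in 5C (adjusted p = 0.000348) and 0.43 ± 0.10 in 3C (0.0157). It was also higher in 5C than in 3C, by 0.40 ± 0.10 (adjusted p = 0.0372). Slc25a1, the mitochondrial citrate exporter that supplies Acly, rose by 0.45 ± 0.068 in 5C and 0.49 ± 0.068 in 3C.

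In the sterol branch, all 18 genes had a positive log2 fold change in 5C against DMSO and 15 were called higher, with a median of 0.61. In 3C against DMSO 11 were called higher, with a median of 0.34. The summed level of the branch was 335 to 371 FPKM with DMSO, 441 to 467 with 3C and 498 to 530 with 5C, and the groups did not overlap. In 5C against 3C all 18 values were again positive, with a median of 0.24, but only 4 genes were called.

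Among the enzymes that build mevalonate and its products, Acat2, which joins acetyl-CoA units in the cytosol, changed most. It had 20.4 and 22.5 CPM with DMSO, 40.4 and 39.4 with 3C and 45.2 and 46.8 with 5C. Its log2 fold change was 1.12 ± 0.094 in 5C (adjusted p = 2.94e-05) and 0.86 ± 0.094 in 3C (0.00018), and 5C did not pass the test against 3C. Hmgcs1, the HMG-CoA synthase of the cytosol, had 101 and 109.6 CPM with DMSO, 137 and 135 with 3C and 202 and 203 with 5C. The levels formed 3 separate steps with little spread. Hmgcs1 rose by 0.96 ± 0.071 in 5C (adjusted p = 1.35e-05) and 0.34 ± 0.071 in 3C (0.00757), and by 0.62 ± 0.071 from 3C to 5C (0.000958).

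Idi1, which isomerises the first isoprenoid unit, had 31.5 and 41.9 CPM with DMSO, 46.9 and 44.6 with 3C and 63.2 and 64.2 with 5C. The 2 DMSO libraries differed from each other by more than the 2 of either treated group. Idi1 rose in 5C by 0.81 ± 0.13 (adjusted p = 0.00144) and was higher in 5C than in 3C by 0.53 ± 0.13 (0.0283), while 3C against DMSO gave 0.29 ± 0.13 and did not pass (0.154). Fdps, which makes farnesyl diphosphate, had 74.2 and 92.8 CPM with DMSO, 137 and 113 with 3C and 137 and 112 with 5C. It had 0.59 ± 0.15 in 5C (adjusted p = 0.0241) and 0.55 ± 0.15 in 3C (0.0371), and the 2 libraries of each group lay well apart. Of the other 3 enzymes of these steps, Mvk rose in 5C (0.49, adjusted p = 0.0113), and Pmvk and Mvd were not called in any comparison.

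From squalene to cholesterol, 10 of 11 genes were called higher in 5C and 8 in 3C. Fdft1, the squalene synthase that commits farnesyl units to sterols, had 57.04 and 60.6 CPM with DMSO, 91.3 and 82.7 with 3C and 92.9 and 87.3 with 5C. It rose by 0.63 ± 0.078 in 5C (adjusted p = 0.000289) and 0.53 ± 0.078 in 3C (0.001). Sqle, the oxygenase after it, rose less, by 0.38 and 0.28. Lss, which folds the product into lanosterol, had 54.01 and 54.4 CPM with DMSO, 82.3 and 67.8 with 3C and 93.96 and 91.7 with 5C. The 3 groups were separate, and Lss rose by 0.79 ± 0.092 in 5C (adjusted p = 0.000208) and 0.44 ± 0.092 in 3C (0.0076), with a further 0.36 ± 0.092 from 3C to 5C (0.0345).

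Cyp51, the lanosterol demethylase, had 77.02 and 89.9 CPM with DMSO, 104 and 99.6 with 3C and 139 and 143 with 5C. Most of its difference lay between 3C and 5C: the log2 fold change was 0.52 ± 0.087 there (adjusted p = 0.00499), 0.77 ± 0.087 in 5C against DMSO (0.000172) and 0.25 ± 0.087 in 3C against DMSO, which did not pass (0.0672). In 3C against DMSO, Cyp51 passed with upper quartile scaling, with counts divided by 4 or with at least 10 counts in every library. Hmgcs1, Idi1, Lss and Cyp51 were the 4 sterol genes called between the cocktails. Tm7sf2, a sterol reductase, had 12.8 and 17.7 CPM with DMSO, 23.9 and 26.9 with 3C and 34.2 and 30.3 with 5C. It rose by 1.09 ± 0.16 in 5C (adjusted p = 0.000819) and 0.70 ± 0.16 in 3C (0.0108).

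The dehydrogenase Nsdhl, which helps remove methyl groups from the sterol ring, had 23.2 and 23.8 CPM with DMSO, 37.9 and 32.1 with 3C and 43.04 and 40.3 with 5C. It rose by 0.84 ± 0.10 in 5C (adjusted p = 0.000291) and 0.54 ± 0.10 in 3C (0.0046). Hsd17b7, the reductase that works with it, had 25.4 and 27.7 CPM with DMSO, 44.4 and 40.8 with 3C and 46.1 and 44.9 with 5C. Its values were 0.80 ± 0.092 (adjusted p = 0.000207) and 0.65 ± 0.092 (0.000846), and both cocktails stood well above DMSO. Ebp and Sc5d, late enzymes of the route, rose in both groups by log2 fold changes from 0.33 to 0.49. Msmo1 rose in 5C by 0.29 and was not called in 3C (0.061), and Dhcr7, which makes cholesterol in the last step of one route, was not called.

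**Figure D2:**
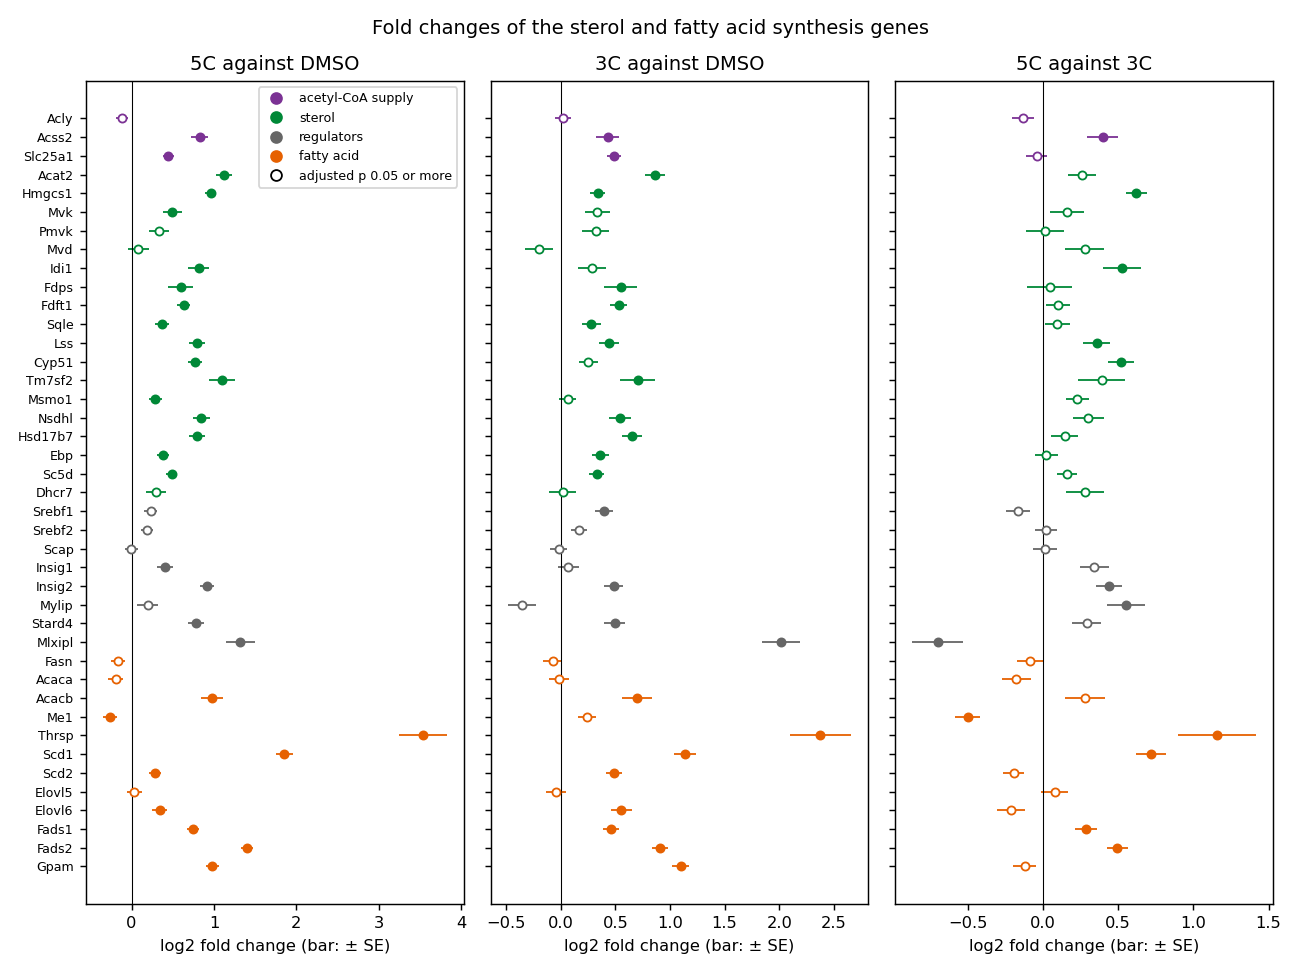
Log2 fold change of 41 genes in the 3 comparisons, with bars of ± SE from edgeR. Filled points passed an adjusted p of 0.05 and colours give the branch. Sterol genes lie to the right of 0 in 5C against DMSO, from 0.081 to 1.12, while fatty acid genes run from -0.26 for Me1 to 3.53 for Thrsp.

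Of the 8 regulators, 4 were called higher in 5C and 4 in 3C, and the genes for the SREBP2 precursor and its escort were not among them. Srebf2 had 224 and 244 CPM with DMSO, 268 and 268 with 3C and 267 and 258 with 5C, with log2 fold changes of 0.19 ± 0.072 in 5C (adjusted p = 0.0885) and 0.16 ± 0.072 in 3C (0.143). Scap had 107 and 119 CPM with DMSO, 118 and 109.9 with 3C and 115 and 107 with 5C. Its groups overlapped, and its 95% intervals were -0.18 to 0.17 in 5C and -0.20 to 0.16 in 3C. Srebf1 had 192 and 194 CPM with DMSO, 269 and 251 with 3C and 239.8 and 208 with 5C. It was called higher in 3C, by 0.40 ± 0.079 (adjusted p = 0.00574), and not in 5C, where it had 0.23 ± 0.079 (0.0569). The difference between the cocktails did not pass (-0.16 ± 0.079, adjusted p = 0.245). DESeq2 called both Srebf1 (adjusted p = 0.0260) and Srebf2 (0.043) higher in 5C, and edgeR called Srebf1 there with counts divided by 4 (0.0418) or with at least 10 counts in every library (0.0411). The Srebf1 gene gives SREBP1a and SREBP1c transcripts, which a count per gene does not separate.

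Insig1, itself a well-known SREBP target, had 131 and 160.4 CPM with DMSO, 157 and 156 with 3C and 194 and 188 with 5C. DMSO and 3C overlapped, and Insig1 rose in 5C by 0.41 ± 0.097 (adjusted p = 0.0124). The difference between the cocktails, 0.34 ± 0.097, did not pass in edgeR (adjusted p = 0.0528), while DESeq2 called it. Insig2, whose product holds SREBPs in the same way, had 66.3 and 70.5 CPM with DMSO, 103 and 92.6 with 3C and 122 and 134 with 5C. Its levels formed 3 steps, and it rose by 0.92 ± 0.085 in 5C (adjusted p = 5.15e-05), 0.48 ± 0.085 in 3C (0.00295) and 0.44 ± 0.084 from 3C to 5C (0.00964). The ratio of Insig2 to Insig1 FPKM was 0.514 and 0.455 with DMSO, 0.677 and 0.62 with 3C and 0.651 and 0.796 with 5C, so Insig1 was the more abundant in every library.

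Stard4, which moves cholesterol between membranes, had 42.5 and 48.8 CPM with DMSO, 68.3 and 63.1 with 3C and 74.4 and 80.9 with 5C. It rose by 0.79 ± 0.097 in 5C (adjusted p = 0.000294) and 0.49 ± 0.097 in 3C (0.00521). Mylip, an LXR target whose product marks lipoprotein receptors for degradation, had 17.2 and 14.6 CPM with DMSO, 12.97 and 12.4 with 3C and 19.2 and 16.7 with 5C. Neither group passed the test against DMSO, with 0.20 in 5C and -0.36 in 3C, but 5C was higher than 3C by 0.55 ± 0.13 (adjusted p = 0.0229).

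Mlxipl, which encodes ChREBP, had 11.7 and 8.31 CPM with DMSO, 44.5 and 38.2 with 3C and 27.5 and 21.8 with 5C. It was the regulator with the largest change, and its order differed from that of the sterol genes: 3C was highest. The log2 fold change was 2.02 ± 0.17 in 3C (adjusted p = 5.28e-05) and 1.32 ± 0.17 in 5C (0.000463), and 5C was called lower than 3C, at -0.70 ± 0.17 (0.0268).

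In the fatty acid branch, 9 of 13 genes were called higher and 1 lower in 5C, and 9 higher and 0 lower in 3C, with medians of 0.75 and 0.55. The order of the branch medians in 5C against DMSO was not stable: the fatty acid median was 0.55 with at least 10 counts in every library, where the sterol median was 0.62, and 0.50 against 0.60 by limma on log2(FPKM + 1). In 5C against 3C, 4 were higher and 1 lower, with a median of 0.078 and 6 of 13 values below 0. The genes called higher in 5C were 2 of the 5 of synthesis and NADPH, 5 of the 6 of desaturation and elongation, and both of glycerolipid synthesis. The 5 genes of synthesis and NADPH together summed to 84 to 91.2 FPKM with DMSO, 93.6 to 101 with 3C and 75.3 to 84.3 with 5C, whereas the 6 of desaturation and elongation summed to 336 to 346, 495 to 529.9 and 576 to 590.5 FPKM.

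**Figure D3:**
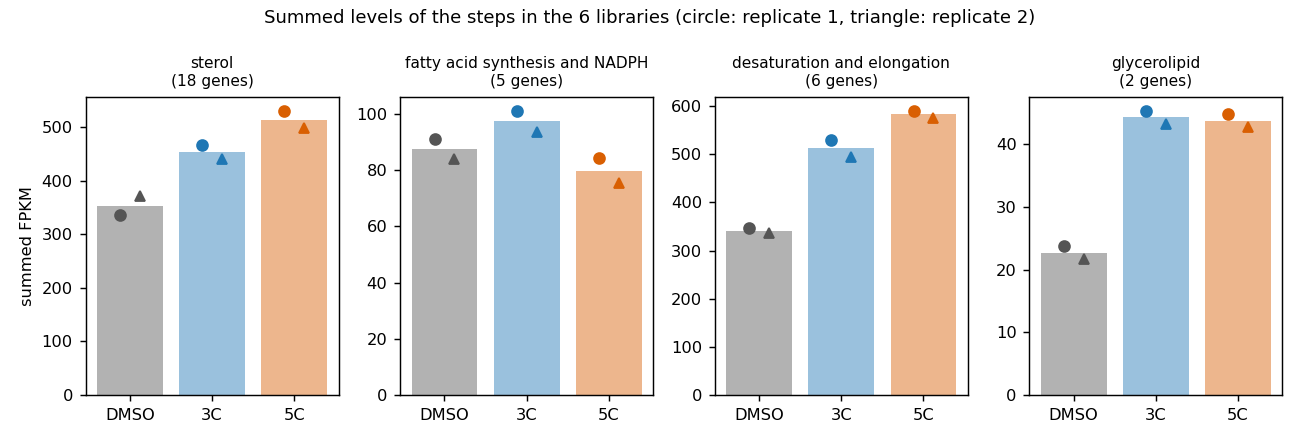
Summed FPKM of the sterol branch and of the 3 steps of the fatty acid branch in each library, with bars at the mean of 2 libraries, each axis from 0. The sterol sum was 335–371 FPKM with DMSO and 498–530 with 5C and that of desaturation and elongation 336–346 and 576–590.5, while fatty acid synthesis and NADPH stayed between 75.3 and 101.

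Fasn, the synthase that makes palmitate, was called in no comparison, with 290.4 to 356 CPM over the 6 libraries and 95% intervals of -0.36 to 0.034 in 5C and -0.27 to 0.12 in 3C. Acaca, the acetyl-CoA carboxylase that supplies it, ran from 71.4 to 91.9 CPM and was also not called, with intervals of -0.41 to 0.018 and -0.23 to 0.19. Its mitochondrial relative Acacb, whose product restrains fatty acid oxidation, had 13.1 and 11.6 CPM with DMSO, 22.5 and 18.4 with 3C and 22.9 and 25.04 with 5C. Acacb rose by 0.98 ± 0.13 in 5C (adjusted p = 0.000585) and 0.70 ± 0.13 in 3C (0.00486), although limma on log2(FPKM + 1) gave 0.36 in 3C and did not call it (adjusted p = 0.136). Its ratio to Acaca in FPKM went from 0.162–0.17 with DMSO to 0.302–0.349 with 5C.

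Thrsp, a lipogenic protein of liver, was scarce with DMSO and had 0.491 and 0.698 CPM with DMSO, 3.49 and 2.84 with 3C and 6.80 and 6.83 with 5C. It had the largest fold change of the members with a count in every library: 3.53 ± 0.29 in 5C (adjusted p = 2.43e-05), 2.38 ± 0.28 in 3C (0.00029) and 1.16 ± 0.26 from 3C to 5C (0.0185). The DMSO values rest on 33 and 46 counts. Me1, the malic enzyme that makes NADPH, was the only member called lower in 5C against DMSO, at -0.26 ± 0.082 (adjusted p = 0.0421). It had 162 and 167 CPM with DMSO, 202 and 195 with 3C and 147 and 125 with 5C, and the call was lost without either DMSO library, either 3C library or 5C replicate 2, at adjusted p from 0.0566 to 0.225. It was also lower in 5C than in 3C, at -0.50 ± 0.082 (0.00475). In 3C against DMSO, Me1 had 0.24 ± 0.082 and did not pass in edgeR (adjusted p = 0.0641), while DESeq2 called it higher.

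Scd1, which puts the first double bond into saturated fatty acids, had 231 and 207 CPM with DMSO, 541 and 441 with 3C and 779 and 779.5 with 5C. Its 3 groups were far apart, with 1.85 ± 0.10 in 5C (adjusted p = 2.52e-06), 1.13 ± 0.10 in 3C (5.19e-05) and 0.72 ± 0.099 from 3C to 5C (0.00236). Scd2, the relative that is usually low in adult liver, was the most abundant member per length in all 3 groups, at 147 ± 0.083, 206 ± 6.98 and 176 ± 11.3 FPKM (SD, n = 2). Scd2 rose by 0.29 in 5C and 0.48 in 3C. The ratio of Scd1 to Scd2 FPKM was 0.306 and 0.26 with DMSO, 0.472 and 0.412 with 3C and 0.805 and 0.857 with 5C, with no overlap between groups.

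Fads2, the first desaturase of the polyunsaturated route, had 154 and 143 CPM with DMSO, 295 and 274 with 3C and 388 and 387 with 5C. It rose by 1.40 ± 0.071 in 5C (adjusted p = 1.56e-06), 0.91 ± 0.071 in 3C (2.56e-05) and 0.50 ± 0.070 from 3C to 5C (0.00254). Fads1, also on chromosome 19 and the next desaturase of the route, had 214 and 231 CPM with DMSO, 318 and 308 with 3C and 361 and 376 with 5C. It moved in the same order by less, with 0.75 ± 0.075 in 5C (adjusted p = 8.38e-05), 0.46 ± 0.075 in 3C (0.00184) and 0.29 ± 0.075 between the cocktails (0.0372). Fads1 was above Fads2 in FPKM with DMSO, at ratios of Fads2 to Fads1 of 0.783 and 0.676, and below it with 5C, at 1.17 and 1.09.

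Of the 2 elongases, 1 was called. Elovl6, which extends palmitate, had 25.8 and 25.7 CPM with DMSO, 40.4 and 36.97 with 3C and 33.9 and 30.6 with 5C. Like Mlxipl it was highest in 3C, at 0.55 ± 0.095 against DMSO (adjusted p = 0.00249) and 0.34 ± 0.095 in 5C (0.0251), and the difference between the cocktails did not pass (0.203). Elovl5, which extends polyunsaturated chains, was not called in any comparison.

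Gpam, which starts glycerolipid synthesis, had 135 and 119 CPM with DMSO, 286 and 270.0 with 3C and 243 and 251 with 5C. It rose by 0.98 ± 0.078 in 5C (adjusted p = 2.15e-05) and 1.10 ± 0.079 in 3C (1.63e-05). Pnpla3, a lipid droplet protein, was almost absent with DMSO, with 10 and 0 counts, and had 63 and 59 counts in 3C and 95 and 79 in 5C. It was called higher in both, but with so few DMSO counts no fold is given.

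**Figure D4:**
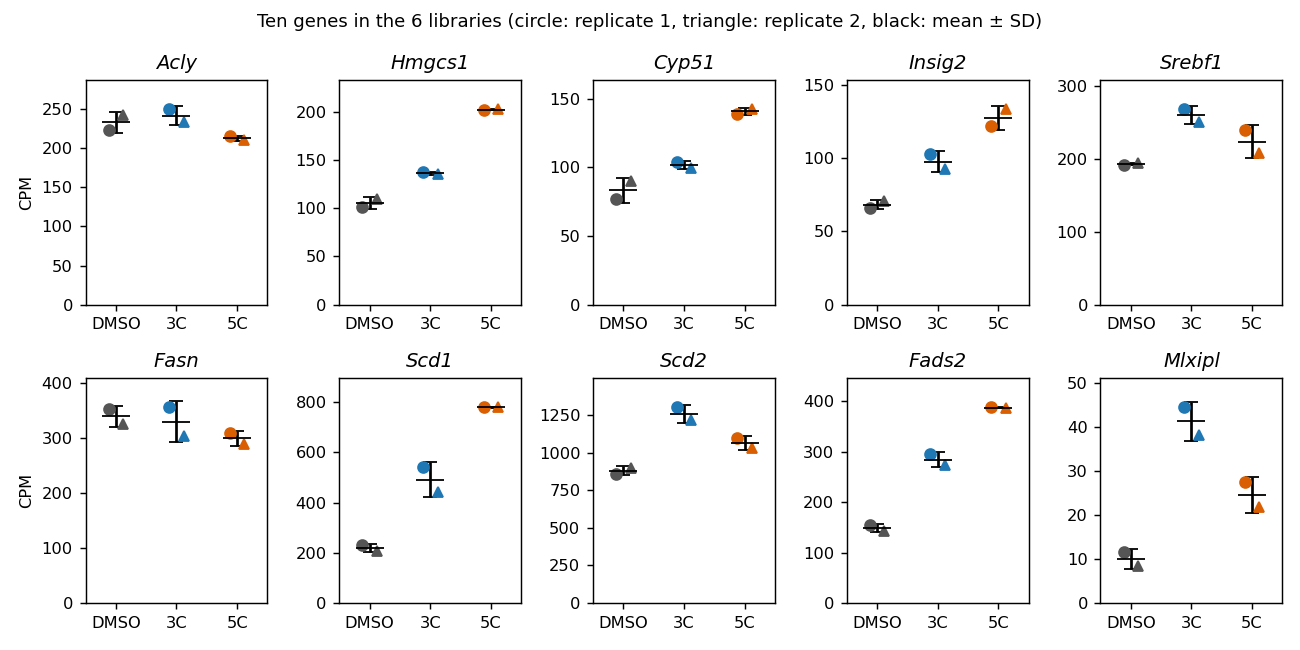
CPM of 10 genes in the 6 libraries, with the mean and SD of 2 replicates in black and each axis from 0. Acly and Fasn overlap or nearly overlap between groups, Hmgcs1, Scd1 and Fads2 step up from DMSO to 3C to 5C, and Mlxipl and Scd2 are highest in 3C.

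Other genes of lipid handling were counted in 7 lists of neighbouring pathways. Their counts stand against 15.6% of all genes called higher and 13.1% lower in 5C against DMSO, and 12.7% and 11.8% in 3C against DMSO. In triglyceride synthesis and droplets, 7 of 14 tested genes were called higher in 5C and 9 in 3C, and 0 lower. Plin5, a droplet coat protein, had 2.47 and 2.00 CPM with DMSO, 11.97 and 12.5 with 3C and 20.8 and 20.2 with 5C and a log2 fold change of 3.21 in 5C. Cideb, of the droplet surface, had 2.72, and Cidec, which fuses droplets, 1.46. In elongation, desaturation and activation outside the members, 6 of 12 were higher and 1 lower in 5C, and 10 higher and 0 lower in 3C. Elovl2 had the largest change there (2.44 in 5C), followed by the acyl-CoA synthetase Acsl1 (1.01) and Fads6 (0.93).

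Sterol storage, transport and LXR gave 3 of 12 higher and 5 lower in 5C, and 2 higher and 4 lower in 3C. Lcat, which esterifies cholesterol in plasma, had 3.23 and 1.11 CPM with DMSO, 11.4 and 11.1 with 3C and 26.7 and 34.7 with 5C. Its log2 fold change was 3.84 in 5C. Abcg1 (-0.88) and Npc2 (-0.76), which act in sterol export and lysosomal release, were lower in 5C. In SREBP processing 0 of 11 were higher and 3 lower in 5C: Mbtps2, the site-2 protease, Ube2g2 and Fbxw7, with log2 fold changes from -0.39 to -0.20. In 3C 0 were higher and 3 lower, Syvn1 (-0.57), Erlin1 (-0.45) and Ube2g2 (-0.44). The isoprenoid list had 1 of 7 called lower in 5C, Nus1 (-0.31), and 2 in 3C, Nus1 (-0.44) and Ggps1 (-0.58). In NADPH supply 3 of 6 were lower and 1 higher in 5C, with Pgd of the pentose phosphate route at -0.74, G6pdx at -0.44 and Mthfd1 at 0.44. In 3C, 2 were higher, Tkt (0.35) and Mthfd1 (0.30), and 1 lower, Taldo1 (-0.29), while Pgd (-0.13) and G6pdx (-0.22) were not called.

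In the list of AMPK subunits, their upstream kinase Stk11 and ETC-1002 activation, 2 of 8 genes were called higher and 1 lower in 5C (15.6% and 13.1% of all genes), and 2 higher (Slc27a2 and Prkaa2, the latter at 0.57) and 0 lower in 3C. Slc27a2 encodes the very long chain acyl-CoA synthetase that converts ETC-1002 into its active CoA form in liver. It had 12.8 and 9.30 CPM with DMSO, 90.5 and 90.4 with 3C and 109 and 133 with 5C. Both treated groups were far above DMSO, with 3.47 ± 0.16 in 5C (adjusted p = 5.64e-06) and 3.00 ± 0.16 in 3C (1.56e-05), and the difference between them, 0.47 ± 0.15, did not pass the test (0.089). The other 7 genes of the list lay between -0.34 (Prkaa1, called lower) and 0.39 (Prkab2, called higher) in 5C.

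**Figure D5:**
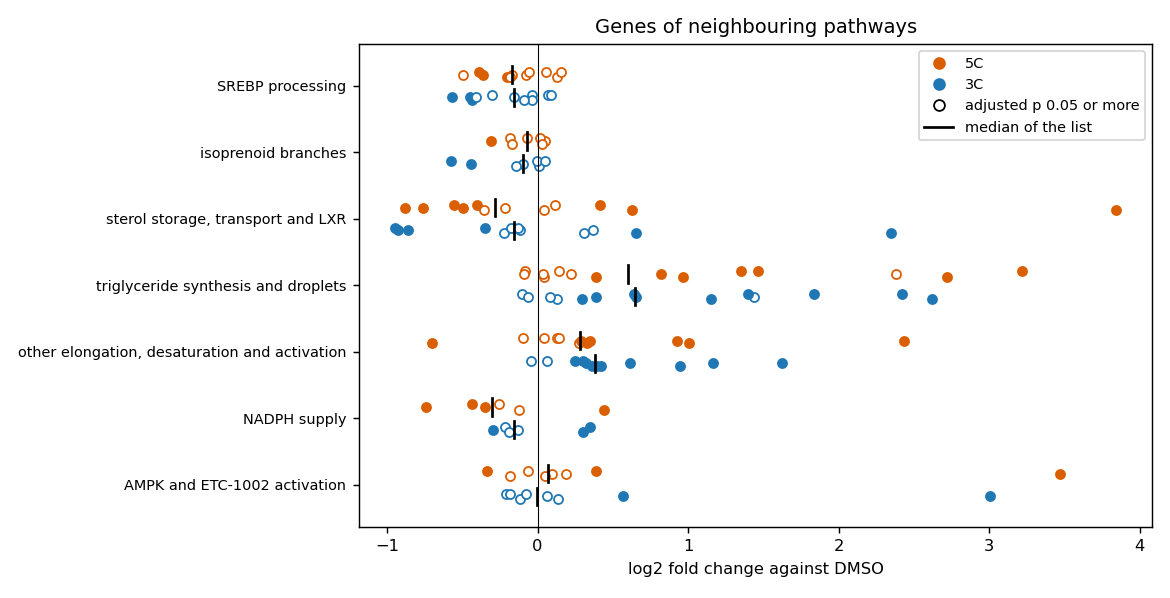
Log2 fold change against DMSO of the tested genes of 7 neighbouring lists, with 5C in orange and 3C in blue, filled where the adjusted p was under 0.05 and a black line at the median of each list. Triglyceride and droplet genes and Slc27a2 (3.47 in 5C) lie to the right, while most genes of SREBP processing and NADPH supply lie near or left of 0.

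With 2 libraries a group, single libraries carried some calls. In 5C against DMSO, 22 members were higher without 5C replicate 1, where Mvk, Fdps, Sqle, Msmo1, Insig1, Scd2, Elovl6 and Pnpla3 were lost at adjusted p from 0.058 to 0.135. Msmo1 was also lost without DMSO replicate 1, either 3C library or 5C replicate 2, Elovl6 without either DMSO library, Fdps without DMSO replicate 1 and Insig1 without 5C replicate 2. In 3C against DMSO, 15 were higher without 3C replicate 1, where Acss2, Hmgcs1, Fdps, Sqle, Lss, Nsdhl, Sc5d, Srebf1, Stard4, Acacb and Pnpla3 were lost (0.0529 to 0.173), and 20 without 3C replicate 2. Without 3C replicate 2 the calls lost were Hmgcs1, Sqle, Tm7sf2, Ebp, Sc5d and Pnpla3, without DMSO replicate 1 Acss2, Fdps and Sqle, and without either 5C library Sqle and Pnpla3. In 5C against 3C, 6 and 3 were higher without 3C replicate 1 and 2, and 5 and 4 without 5C replicate 1 and 2. Hmgcs1, Scd1 and Fads2 were called there whichever library was left out, and the calls of Acss2, Idi1, Mylip, Thrsp and Fads1 were lost without any 1 of these 4. Those of Lss (3C replicate 2, either 5C library), Insig2 (3C replicate 2, 5C replicate 2), Cyp51 (3C replicate 2), Mlxipl (either 3C library, 5C replicate 2) and Me1 (3C replicate 1) were lost without the libraries named. Other members newly passed. Without DMSO replicate 2, Dhcr7 (0.51) and Srebf2 (0.26) were called higher and Acaca (-0.31) lower in 5C against DMSO, and Mvk (0.49), Idi1 (0.53), Cyp51 (0.39), Srebf2 (0.24) and Insig1 (0.24) higher in 3C against DMSO. Without either DMSO library, Tm7sf2, Msmo1, Insig1 and Stard4 passed in 5C against 3C. Without 5C replicate 2, Srebf1 (0.31) passed in 5C against DMSO, and without either 5C library Me1 (0.24) passed in 3C against DMSO. 

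For 12 members at least 10% of the 50-base words of the transcript also occur in another gene, so their counts are uncertain where reads could be split: Acat2, Hmgcs1, Mvd, Idi1, Fdft1, Cyp51, Dhcr7, Srebf2, Scap, Acaca, Me1 and Fads1. The share was largest for Me1 (71.3%, with the antisense gene Rwdd2a), Acaca (52.6%, Gm5182) and Fdft1 (37.7%, the antisense gene Ctsb). By annotated exons, 11 members had at least 10% of the bases of their canonical transcript under an antisense gene. Of these, Sqle (16.7%), Nsdhl (12.6%) and Acss2 (10.3%) are not among the 12 named above. Whether strand was used in counting is not stated. The NEBNext kit named for the libraries does not mark strand, so reads under an antisense gene may come from either gene.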

How the data were processed

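RNA-seq libraries of 6 dHep cultures were read from a count table and an FPKM table that the authors deposited. The deposited counts are raw counts per gene. The deposited FPKM values are scaled by library size and gene length, but they are not simply these counts divided by a fixed length. For Dhcr7, the mean went from 53.4 CPM with DMSO to 64.9 with 5C, but from 22.2 to 21.97 FPKM. For Scd1 both measures rose, from 219 to 779 CPM and from 41.5 to 146 FPKM. Counts were given for 52323 genes and FPKM for 52327, with 52257 shared. The reason for the difference was not tested. The submitters' processing notes name Subread, featureCounts, DESeq2 and GRCm39, without versions, and whether strand was used is not given in the sources used here. The NEBNext kit named does not mark strand.

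Groups were taken from the sample labels. Counts of all 3 groups were fitted together with edgeR 4.0.16 in R 4.3.3 (TMM scaling, filterByExpr, robust quasi-likelihood test, two-sided, 3 residual degrees of freedom), and p-values were adjusted by Benjamini-Hochberg over 19135 genes. Errors of log2 fold changes are standard errors from that fit. The common biological coefficient of variation was 18.4%. DESeq2 1.42.0 and limma 3.58.1 on log2(FPKM + 1) and log2(FPKM + 0.1) were alternatives. The study's own analysis used DESeq, and edgeR was used here because it is the main test for counts. The fit was tested on simulated data. Low counts included an excess at 4, 8 and 12 (4816 entries of 4 against 3121 of 3), so how many units a fragment gave is unknown. Dividing counts by 4 was therefore an alternative.

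All values of the 6 libraries were given for Acly, for the 8 regulators and for members called with an absolute log2 fold change of at least 0.5. Other members given with values of their own were chosen after their values were seen. The members, marker lists and pathway lists were chosen with earlier results of these data known. All 42 members matched the GENCODE annotation of GRCm39. Promoter sequences were read from that genome before the start of each canonical transcript. At these depths the smallest counts limit Pnpla3 and Thrsp most.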

Additional observations from a re-analysis of the deposited data

How the results depend on the processing

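The counts of members called were recomputed under other scalings, filters, tools and samples, and leaving out 1 library left a group with 1 sample that was assumed to vary like the others. Requiring a log2 fold change above 1 left 7 higher and 0 lower in 5C against DMSO, 5 higher in 3C against DMSO, and 1 higher and 0 lower in 5C against 3C. Fitting only the 4 libraries compared, or limma with either pseudocount, left 0 lower in 5C against DMSO, where DESeq2 called 1 and 1 passed at an unadjusted p under 0.05. Limma with either pseudocount left 7 higher in 5C against 3C. It left 28 higher in 5C against DMSO, ending the calls of Msmo1 and Elovl6, and 23 in 3C against DMSO, ending those of Acacb, Acss2 and Sqle. Leaving out 1 library gave 22 to 31 higher and 0 to 1 lower in 5C against DMSO, 15 to 31 higher and 0 to 0 lower in 3C against DMSO, and 3 to 15 higher and 0 to 2 lower in 5C against 3C. The fatty acid median in 5C against 3C then ran from -0.060 to 0.19. The causes were not tested.

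Same-numbered replicates did not deviate together (correlations of -0.031, 0.00068 and 0.016). Whether they shared an animal or an isolation cannot be told from these correlations. With the replicate block, 29 members were higher and 1 lower in 5C against DMSO, 25 and 0 with 3C, and 10 and 2 between the cocktails. Fdps no longer passed against DMSO, nor Acss2 between the cocktails.

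Of 2139 values of single members under the other settings, 1890 kept their direction and side of the threshold, 161 no longer passed, 40 newly passed and 48 changed sign. Of the 161, 57 came from the fold limit of 1, which changed the threshold and not the values. The sign changes by limma (FPKM + 1, then FPKM + 0.1) were Elovl5 in 5C against DMSO (-0.0031 and -0.0032), Acaca in 3C against DMSO (0.020 and 0.022), and in 5C against 3C Pmvk (-0.021 and -0.023), Fdps (-0.047 and -0.048), Ebp (-0.020 and -0.020), Dhcr7 (-0.052 and -0.053), Srebf2 (-0.0048 and -0.0049) and Scap (-0.034 and -0.036). Upper quartile scaling gave Scap 0.0021 and Acaca 0.0028 in 3C against DMSO, and Pmvk -0.0051 and Scap -0.0060 in 5C against 3C. None of these was called before or after.

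Leaving out 1 library changed the sign of uncalled values. In 5C against DMSO, Mvd ran from -0.054 to 0.22, Scap from -0.086 to 0.082 and Elovl5 from -0.10 to 0.15. In 3C against DMSO, Acly ran from -0.048 to 0.096, Msmo1 from -0.034 to 0.17, Dhcr7 from -0.17 to 0.23, Scap from -0.10 to 0.072, Insig1 from -0.083 to 0.24, Fasn from -0.19 to 0.034, Acaca from -0.13 to 0.10 and Elovl5 from -0.092 to 0.0046. In 5C against 3C, Slc25a1 ran from -0.11 to 0.010, Pmvk from -0.047 to 0.065, Fdps from -0.095 to 0.19, Ebp from -0.011 to 0.059, Scap from -0.033 to 0.067, Fasn from -0.19 to 0.031 and Elovl5 from -0.060 to 0.19.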
